A study of Homo sapiens with 27 samples.

Results

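501mel melanoma cells with both TFE3 and TFEB knocked out were compared with TFEB KO cells, both treated with an mTOR inhibitor. The double knockout with Torin (DKO Torin) had 3 libraries. The TFEB KO cells treated in the same way (TFEB KO Torin) also had 3. These are 6 of the 27 libraries of the series, chosen by their genotype and treatment labels. 501mel is an established human melanoma cell line of the pigmented, MITF-high kind. The genotype was labeled TFE3 and TFEB double KO in one group and TFEB KO in the other, so both groups shared the loss of TFEB, and both received Torin1, an inhibitor of the mTOR kinase, at 250 nM for 12 h in medium with serum. Each knockout was made with Cas9 and each line was a single clone, so clone and genotype cannot be told apart. The 3 libraries of a group came from that 1 clone. The p-values and standard errors below therefore rest on the spread between libraries within groups, and not on that between independent knockouts. This spread was pooled over all 25 libraries of the fit, not only the compared ones. Other sets of libraries were used for reference: the same DKO and TFEB KO clones without Torin (12 h control, 3 libraries each), and TFE3 KO cells (3 libraries) and parental WT cells (2 libraries), both with Torin.

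TFE3, TFEB and MITF are members of the MiT/TFE family of basic helix-loop-helix leucine zipper transcription factors, which bind E-box sequences with CACGTG at their core and, at many lysosomal genes, the longer palindrome TCACGTGA. When nutrients are plentiful, Rag GTPases bring TFEB and TFE3 to the lysosome, where mTORC1 phosphorylates them and they are kept in the cytoplasm. When mTORC1 is inactive, as it is with Torin, they lose these phosphates and enter the nucleus. They are best known as activators of genes for lysosomes, autophagy, the Rag GTPases and parts of the integrated stress response, and MITF governs pigment cell identity. In TFEB KO cells treated with Torin, TFE3 and MITF remain, and in DKO cells MITF remains.

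The Cas9 guides show where the genes were cut. The 20-base sites lie in lower case below, with the PAM beside each in capitals, on hg38 and with exons counted in the GENCODE v44 canonical transcript. The TFE3 site lies at chrX:49038370-49038389 on the plus strand, in coding exon 4 of a gene that spans 49028726 to 49043410 on the minus strand. The TFEB site lies at chr6:41690831-41690850 on the minus strand, in coding exon 3 of a gene that spans 41683978 to 41736259 on the minus strand. Each had 1 exact match on its own chromosome, and the other chromosomes were not searched.
TFE3 guide site: ggtactgtttcacctgctgcCGG
TFEB guide site: agtacctgtccgagacctatGGG

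The libraries were made by sequencing of 3′ ends, so the reads of a gene fall near its poly(A) site and not at the cut. The 6 libraries held 4468579 to 6287649 reads in genes and 13235 to 13414 genes with a read. A count of 3 reads corresponded to a value of 0.462 to 0.611 in the deposited units. The values are labeled normalized expression, and how they were scaled is not given in the sources used here. They were read as CPM, counts scaled to library size, after a scaling between libraries. Of 12 melanoma identity markers 12 were in the table, and their summed value was 8480 to 8648 in the DKO Torin libraries and 8259 to 8385 in the TFEB KO Torin libraries. None of the 10 leukocyte or 7 endothelial markers was in the table. Of 10 fibroblast markers 5 were, with sums of 9.84 to 12.9 and 7.07 to 11.5, and of 10 epithelial and keratinocyte markers 3 were, with sums of 60.0 to 76.9 and 64.4 to 71.7. Values in these libraries are relative to all reads, so a difference in the RNA content of the cells would not be seen.

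TFE3 transcripts were lower but not absent in the DKO Torin cells. TFE3 measured 6.15, 6.26 and 8.46 in DKO Torin libraries 1 to 3 and 18.3, 19 and 16.5 in TFEB KO Torin libraries 1 to 3, a log2 fold change of -1.26 ± 0.17 (SE, n = 3 per group, adjusted p = 1.43e-07). All 3 DKO values lay below all 3 TFEB KO values. A 3′ read lies outside the cut and an edited allele can still be transcribed, so this value does not measure the loss of the protein. TFEB, cut in both groups, measured 0.769, 0.190 and 0.984 against 3.45, 0.628 and 0.611, and these groups overlapped (log2 fold change -0.49 ± 0.32, adjusted p = 0.25); its mean in the WT Torin libraries was 4.95. MITF, the remaining family member, measured 589, 601 and 551 against 748, 705 and 753, and was modestly lower in the DKO Torin cells with no overlap (log2 fold change -0.34 ± 0.06, adjusted p = 1.77e-05).

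Under Torin, more genes were strongly lower than strongly higher in the DKO clone, relative to the TFEB KO clone. Genes with an adjusted p below 0.05 at any fold are described as passing, and those among them with a log2 fold change of 1 or more in either direction as called. Tests used limma on log2(value + 1), and p-values were adjusted over all 13040 genes tested by the Benjamini-Hochberg method. Of these genes, 103 (0.79%) were called higher and 383 (2.94%) were called lower in DKO Torin than in TFEB KO Torin cells. At any fold the numbers were closer, with 1925 genes (14.8%) higher and 2135 (16.4%) lower. The list counts with Torin given below are to be read beside these shares. The libraries of the groups did not overlap for 481 of the 486 called genes, and for 44.5% of all genes tested. The median log2 fold change over all genes was 0.02.

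**Figure D1:**
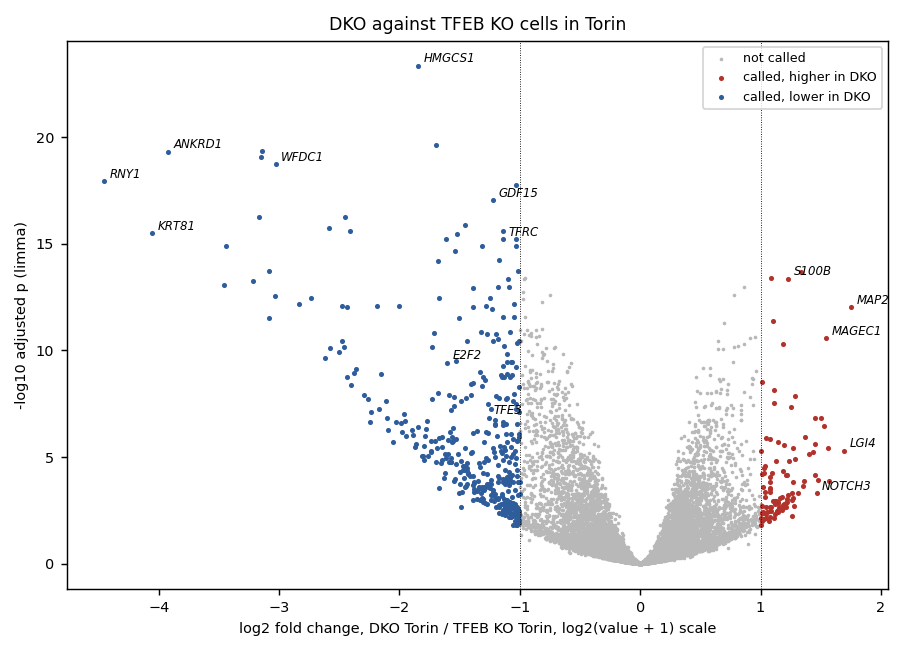
Each point is a gene tested in DKO Torin against TFEB KO Torin cells. The x axis is the log2 fold change on the log2(value + 1) scale and the y axis is -log10 of the adjusted p; red marks the 103 genes called higher, blue the 383 called lower. The lower genes reach further, to a log2 fold change of -4.45 for RNY1, while the highest called gene, MAP2, is at 1.75.

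The genes with the lowest log2 fold changes included small noncoding RNAs. RNY1, a Y RNA of the Ro ribonucleoprotein, measured 1.54, 0.948 and 1.18 in DKO Torin libraries and 44.8, 49.8 and 47.6 in TFEB KO Torin libraries, a log2 fold change of -4.45 ± 0.25 (adjusted p = 1.15e-18). RNY4, a second Y RNA, measured 0, 0.759 and 0.197 against 11, 12.1 and 9.77, a log2 fold change of -3.22 ± 0.26 (adjusted p = 5.76e-14). In both genes all DKO Torin libraries lay far below all TFEB KO Torin libraries, and the DKO values of RNY4 were near the value of 3 reads. RNY3, named here after its values were seen because it lies between the other two, measured 0.615, 0.759 and 0 against 8.28, 6.60 and 7.53 (log2 fold change -2.58 ± 0.26). The 3 genes are neighbors on chromosome 7 (RNY4 from 148963315 to 148963410, RNY3 from 148983755 to 148983856 and RNY1 from 148987136 to 148987248, hg38). VTRNA1-2, a vault RNA gene on chromosome 5, had 2 reads in the 3 DKO Torin libraries together and 135 in the TFEB KO Torin libraries, a ratio of 66.6 with a 95% counting interval of 18.1 to 556. These RNAs are RNA polymerase III transcripts that usually carry no poly(A) tail, Y RNAs have many pseudogene copies, and how reads with several matches were counted is not given in the sources used here, so their source is uncertain.

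Protein-coding genes were among those with the lowest fold changes too. KRT81, a hair keratin with close paralogs, measured 1.69, 0.759 and 0.787 in DKO Torin libraries and 25.5, 45.1 and 30.9 in TFEB KO Torin libraries (log2 fold change -4.06 ± 0.28, adjusted p = 3.18e-16). ANKRD1, an ankyrin repeat cofactor known as a target of the YAP coactivator, measured 7.08, 7.40 and 10.2 against 111, 161 and 146 (log2 fold change -3.92 ± 0.21, adjusted p = 4.75e-20). CRYAB, a small heat shock protein, measured 8.15, 6.45 and 5.12 against 60.7, 66.6 and 69.0 (log2 fold change -3.15 ± 0.17, adjusted p = 8.77e-20). None of these genes overlapped between the groups, and every DKO Torin library was the lower. HTN1, which encodes a secreted histatin, measured 8.61, 7.02 and 8.66 against 73.8, 84.5 and 79.0 (log2 fold change -3.14 ± 0.17, adjusted p = 4.52e-20). Its paralog and neighbor on chromosome 4, HTN3, had 1 read against 136, a ratio of 134 with a 95% counting interval of 23.7 to 5340; reads that match both histatins could be counted for either. WFDC1, a secreted protein with a WAP domain, measured 10.5, 15.6 and 9.25 against 88.6, 114 and 102 (log2 fold change -3.03 ± 0.16). PALMD, a palmdelphin gene on chromosome 1, had 2 reads in the DKO Torin libraries and 188 in the TFEB KO Torin libraries, a ratio of 92.8 with a 95% counting interval of 25.3 to 772. These intervals cover counting error only. The others with the lowest fold changes were OSBPL10, a sterol-binding protein (-3.44), the noncoding RNAs LINC00504 (-3.17) and OVAAL (-3.08), KLHL6 (-2.83) and SPATS1 (-2.73).

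The genes called higher had smaller fold changes. MAP2, a microtubule-associated protein of dendrites, had the highest log2 fold change of the genes named by rule, with 66.5, 65.4 and 60.2 in DKO Torin libraries against 16.2, 21 and 17.9 in TFEB KO Torin libraries (1.75 ± 0.15, adjusted p = 9.42e-13). LGI4, a secreted glial protein, measured 18.6, 15.6 and 12.8 against 3.28, 4.08 and 5.09 (log2 fold change 1.69 ± 0.28, adjusted p = 5.24e-06). BASP1, a membrane protein of growing axons, measured 11.5, 13.3 and 7.08 against 2.07, 3.14 and 3.46 (log2 fold change 1.56 ± 0.25, adjusted p = 3.62e-06). All 3 genes were higher in every DKO Torin library than in any TFEB KO Torin library. S100B, a calcium-binding protein used as a melanoma marker, measured 85.4, 84.4 and 80.7 against 38.1, 35.5 and 31.6 (log2 fold change 1.23 ± 0.10, adjusted p = 4.48e-14), also without overlap. NOTCH3, a receptor of the NOTCH pathway, measured 8, 10.1 and 5.31 against 2.07, 2.20 and 2.04 (log2 fold change 1.47 ± 0.33). The remaining genes of the highest 15 were APC2 (1.57), the cancer-testis antigen MAGEC1 (1.54), RAB3C, a small GTPase of synaptic vesicles (1.53), GIPC3 (1.5), TPT1-AS1 (1.46), the ephrin EFNB3 (1.45), CADM4, a cell adhesion molecule (1.45), CCDC80 (1.44), SLITRK2 (1.41), COL27A1, a fibrillar collagen (1.37) and ANPEP, an aminopeptidase (1.36). TPT1-AS1 is antisense to TPT1, and whether the strand was used in counting is not given in the sources used here. MAGEC1 and KRT81 belong to multigene families whose reads could be split between copies.

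**Figure D2:**
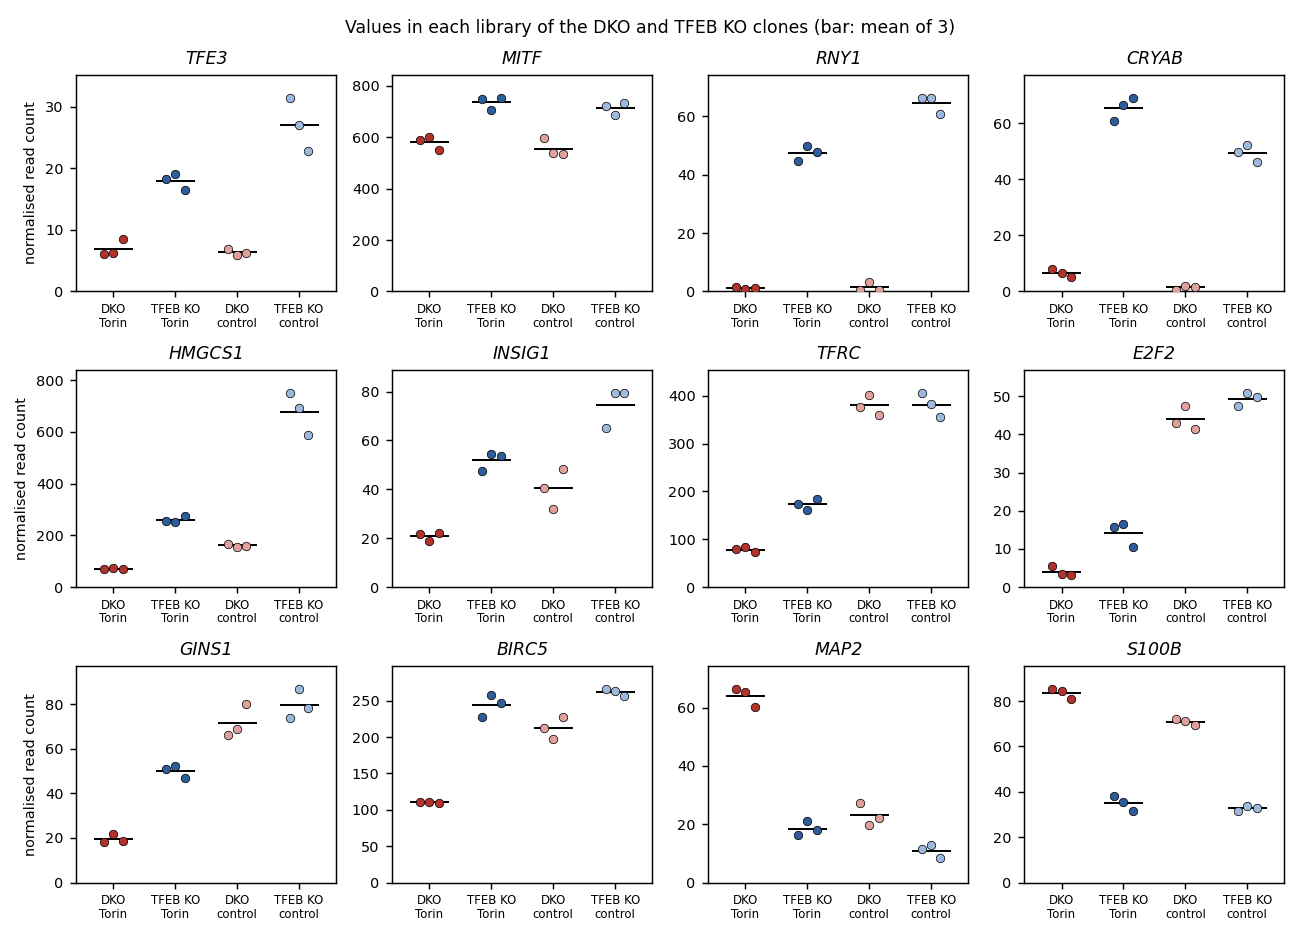
Deposited value (read as scaled CPM, linear axis from 0) of 12 genes in 4 groups of 3 libraries, DKO and TFEB KO cells with Torin and as controls. Points are libraries and bars are the mean of 3. TFE3, RNY1, CRYAB, HMGCS1 and MITF are lower in DKO than in TFEB KO cells with and without Torin and MAP2 and S100B are higher in both, while TFRC, E2F2 and GINS1 are lower in DKO cells with Torin and overlap or lie close together in the controls.

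Genes of sterol synthesis were lower in the DKO Torin cells. Of 26 genes of the sterol pathway tested, 16 passed as lower and 2 as higher, 7 were called lower and none higher, and the median log2 fold change was -0.58 against 0.02 over all genes. Over all genes 16.4% passed as lower and 14.8% as higher, and 2.94% were called lower and 0.79% higher. HMGCS1, which makes HMG-CoA at the head of the pathway, measured 71.5, 73.4 and 69.3 in DKO Torin libraries and 255, 250.0 and 274 in TFEB KO Torin libraries (log2 fold change -1.85 ± 0.08, adjusted p = 4.38e-24). The groups were well apart. INSIG1, which retains the sterol sensor in the endoplasmic reticulum and is itself a sterol-regulated gene, measured 21.5, 19 and 22.2 against 47.4, 54.5 and 53.8 (log2 fold change -1.27 ± 0.12, adjusted p = 1.63e-11). The INSIG1 libraries did not overlap between the groups either. DHCR7 (-1.11), STARD4, a sterol carrier (-1.04), and MSMO1 (-1.01) were also called lower. SREBF2, the transcription factor of the pathway, measured 59.8, 66.6 and 57.1 against 82.4, 78.7 and 89.0 (log2 fold change -0.44 ± 0.09, adjusted p = 1.48e-04). The genes that passed as higher were PMVK (0.55) and FDFT1 (0.26). Among 28 genes of fatty acid synthesis and uptake 7 passed as lower and 5 as higher, with ELOVL6, a fatty acid elongase, called lower (-1.14) and CPT1C, a carnitine palmitoyltransferase of neurons, called higher (1.22).

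Cell cycle genes were lower in DKO than in TFEB KO cells under Torin. Of 61 genes of E2F and DNA replication, 38 passed as lower and none as higher, 8 were called lower, and the median log2 fold change was -0.44. E2F2, an activator E2F, measured 5.54, 3.41 and 3.15 in DKO Torin libraries and 15.7, 16.6 and 10.4 in TFEB KO Torin libraries (log2 fold change -1.60 ± 0.17, adjusted p = 3.76e-10). GINS1, a subunit of the replicative helicase complex, measured 18, 22 and 18.5 against 51.0, 52.3 and 46.8 (log2 fold change -1.32 ± 0.13, adjusted p = 1.31e-11). CLSPN, an adaptor of the replication checkpoint, measured 31.1, 31.9 and 29.7 against 64.5, 63.9 and 71.7 (log2 fold change -1.08 ± 0.10). Neither these genes nor PCNA, the replication clamp, overlapped between the groups; PCNA measured 28.6, 26.0 and 33.5 against 51.7, 50.7 and 50.7 (log2 fold change -0.79 ± 0.12, adjusted p = 1.28e-06). The other genes called were E2F1 (-1.45), CCNE2, a cyclin E (-1.28), FAM111B (-1.18), E2F8 (-1.17) and GINS4 (-1.07). The list did not move evenly: MCM2 (-0.15) and MCM5 (-0.09), subunits of the same helicase, did not pass. Among 58 genes of G2/M and mitosis 28 passed as lower and none as higher, with a median of -0.27, and 1 was called, BIRC5, which encodes the mitotic protein survivin (110.4, 111 and 109 against 227, 257 and 247; log2 fold change -1.14 ± 0.08, adjusted p = 2.39e-16). Of 17 G1 cyclins, kinases and inhibitors 6 passed as lower and 2 as higher, and of 12 histone genes 1 passed as lower. How the cells were distributed over the cell cycle was not measured here, and in bulk RNA fewer cells in a phase and less RNA per cell cannot be told apart.

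The E2F and G2/M lists were lower in DKO cells with Torin, while their medians lay above 0 in the controls. In the control cells of the same clones, 19 of the 61 E2F and replication genes passed as higher in DKO cells and 1 as lower (median 0.24), where 11.8% of all genes passed as higher and 13.6% as lower. The lower one was E2F1, a gene called lower with Torin (-0.60 ± 0.18 in the controls, adjusted p = 0.0106). The test of the difference between the clones' responses to Torin, an interaction term that uses all 12 libraries, gave 35 of 61 genes with a lower response in DKO cells and none with a higher one (median -0.63), against 3.5% and 2.13% of all genes. CLSPN measured 242, 224 and 173 in DKO controls and 165, 158 and 178 in TFEB KO controls, groups that overlapped, and the interaction was -1.42 ± 0.15 (adjusted p = 3.79e-09). E2F2 measured 43.0, 47.6 and 41.3 against 47.6, 50.8 and 49.7 in the controls, and GINS1 66.1, 69.0 and 80.1 against 74.0, 87.0 and 78.4; their interactions were -1.44 ± 0.25 (adjusted p = 9.46e-05) and -1.17 ± 0.18 (adjusted p = 1.64e-05). Both control pairs lay near each other, GINS1 with overlapping libraries and E2F2 with DKO values at or below the lowest TFEB KO value. Of the 58 G2/M genes, 10 passed as higher in the controls and 1 as lower (median 0.18). The lower one was BIRC5, the G2/M gene called with Torin (-0.30 ± 0.08 in the controls, adjusted p = 0.00264). In the interaction, 28 of the 58 had a more negative response in DKO cells and none a more positive one. TFRC, the transferrin receptor through which cells take up iron, behaved in the same way although it belongs to another list: it measured 79.5, 82.9 and 72.6 in DKO Torin and 174, 162 and 185 in TFEB KO Torin libraries (log2 fold change -1.14 ± 0.08, adjusted p = 6.20e-16), but 377, 402 and 361 against 405, 383 and 356 in the controls (-0.01 ± 0.08, adjusted p = 0.966), with an interaction of -1.13 ± 0.11 (adjusted p = 1.75e-09). Of 12 genes of iron handling and ferroptosis 8 passed as lower with Torin, 4 without it, and 1 in the interaction. The interaction shares its Torin libraries with the main comparison, and is no independent repeat of it.

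Several genes of the integrated stress response were lower too, and the response of the list to Torin was mixed. Of 30 genes of the list (ISR), which ATF4 drives when translation is restrained, 14 passed as lower, 3 as higher and 5 were called lower (median -0.33). GDF15, a secreted stress cytokine, measured 118, 124 and 126 in DKO Torin libraries and 289.5, 301 and 274 in TFEB KO Torin libraries (log2 fold change -1.22 ± 0.08, adjusted p = 8.91e-18). CHAC1, a glutathione-degrading enzyme, measured 4.15, 5.12 and 3.54 against 12.6, 13.2 and 9.37 (log2 fold change -1.27). Both genes were lower in every DKO Torin library. NUPR1, a stress-induced nuclear protein, measured 0.615, 0 and 0 against 6.04, 4.55 and 6.11 (log2 fold change -2.48), and PSAT1, an enzyme of serine synthesis, had 2 reads against 33, a ratio of 16.3 with a 95% counting interval of 4.16 to 140.1. ATF4 itself passed as higher, at 0.25. ASNS, asparagine synthetase, measured 15.5, 17.1 and 13.2 against 17.9, 21.2 and 18.9 (log2 fold change -0.33 ± 0.14, adjusted p = 0.0709) but 24.0, 16.9 and 20.5 against 64.9, 61.8 and 59.7 in the controls, where it was called lower (-1.57 ± 0.14, adjusted p = 2.54e-12); the interaction was 1.24 ± 0.20 (adjusted p = 4.02e-05). Over the ISR list 6 genes had a more positive response in DKO cells and 3 a more negative one, against 2.13% and 3.5% of all genes. GDF15 was among the latter, with an interaction of -0.36 (adjusted p = 0.0368), as was SLC7A11, at -0.59 (adjusted p = 0.0103). Of 21 heat shock protein genes 5 passed as higher and 4 as lower with Torin, with a median of 0.07. Over all genes 14.8% passed as higher and 16.4% as lower with Torin, and 2.94% were called lower.

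Chaperones of the endoplasmic reticulum were lower, and for some the gap was narrower with Torin. Of 29 genes of ER folding and the unfolded protein response, 17 passed as lower with Torin and 23 without it, none passed as higher in either, and the medians were -0.35 and -0.69. HSPA5, the main ER chaperone BiP, measured 374, 365 and 327 in DKO Torin libraries and 460.2, 469.7 and 377 in TFEB KO Torin libraries (log2 fold change -0.29 ± 0.08, adjusted p = 0.00338), and 787, 778 and 675 against 2337, 2156 and 1809 in the controls (-1.49 ± 0.08, adjusted p = 5.71e-20). The interaction for HSPA5 was 1.20 ± 0.11 (adjusted p = 3.85e-10). HSPA5 fell with Torin in both clones, and by less on the log2 scale in DKO cells. Of the 29 genes 8 had a more positive response in DKO cells and none a more negative one. DNAJB11, a cochaperone of BiP, kept its gap, with 42.8, 37.2 and 40.5 against 71.6, 77.6 and 84.5 with Torin (log2 fold change -0.94 ± 0.09) and an interaction of 0.20 ± 0.13 that did not pass.

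Antioxidant and amino acid transport genes included a few calls. Of 24 genes of the NRF2, antioxidant and metallothionein list 7 passed as lower and 2 as higher, and 3 were called lower. Over all genes 16.4% passed as lower and 14.8% as higher, and 2.94% were called lower. The list as a whole was not lower: its median was 0.06 against 0.02 over all genes, and 13 of the 24 lay above 0. SLC7A11, called in this list, is also counted in the ISR and amino acid transporter lists. GCLM, a subunit of the enzyme that starts glutathione synthesis, measured 26.5, 21.2 and 25.8 in DKO Torin libraries and 70.7, 66.7 and 82.3 in TFEB KO Torin libraries, with no overlap (log2 fold change -1.54 ± 0.11, adjusted p = 2.24e-15). SLC7A11, the cystine-glutamate exchanger, measured 55.4, 59.2 and 50.4 against 129, 128 and 136, again with no overlap (log2 fold change -1.24 ± 0.11, adjusted p = 3.29e-13). Of 19 amino acid transporters 7 passed as lower and 2 as higher, with SLC36A4, a lysosomal and plasma membrane transporter, also called lower (-1.17).

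Established targets of TFE3 and TFEB were lower by smaller steps. Of 30 such genes, 15 passed as lower and 2 as higher, none was called in either direction, and the median log2 fold change was -0.30. Over all genes 16.4% passed as lower and 14.8% as higher. In the controls 12 of the 30 passed as lower and 2 as higher (median -0.24). In the interaction 3 passed as lower and 1 as higher (median -0.05), so most of the gap was there without Torin. RRAGD, a Rag GTPase of the amino acid sensing pathway, measured 101, 97.1 and 102 in DKO Torin libraries and 195, 199.6 and 198 in TFEB KO Torin libraries (log2 fold change -0.97 ± 0.08, adjusted p = 1.83e-13). RRAGC, its close relative, measured 104, 117 and 98.0 against 189, 188 and 171 (log2 fold change -0.77 ± 0.08, adjusted p = 3.18e-10). PPARGC1A, the PGC1α coactivator of mitochondrial genes, measured 21.2, 23.3 and 26.0 against 62.6, 42.9 and 40.7, and at -1.0 ± 0.14 (adjusted p = 2.50e-07) fell just short of the fold limit. All 3 genes were lower in every DKO Torin library. SQSTM1, the autophagy receptor p62, measured 226, 227 and 207 against 315, 366 and 331 (log2 fold change -0.61 ± 0.07). WIPI1, which acts in autophagosome formation, went the other way with 54.6, 57.1 and 55.3 against 31.7, 34.1 and 33.0 (log2 fold change 0.74 ± 0.11, adjusted p = 6.49e-07).

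The rest of the lysosomal and autophagy machinery had medians nearer to that of all genes. Of 51 lysosomal hydrolases and membrane proteins, some of which are also among the established targets, 17 passed as lower and 2 as higher with a median of -0.18. Over all genes 16.4% passed as lower and 14.8% as higher. LAMP2, a lysosomal membrane protein, measured 109.7, 137 and 115 in DKO Torin libraries and 206, 187 and 189 in TFEB KO Torin libraries, without overlap (log2 fold change -0.69). Of 18 vacuolar ATPase subunits 7 passed as lower and 1 as higher with a median of -0.14. The vacuolar ATPase gene that was called, ATP6V1G2, encodes a neuronal subunit and measured 6.92, 5.12 and 7.08 against 3.97, 0.628 and 2.85 (log2 fold change 1.22 ± 0.30, adjusted p = 0.00123); without TFEB KO Torin library 2 it was 0.74 with an adjusted p of 0.0567. Of 40 autophagy genes 7 passed as lower and 5 as higher, with a median of -0.03 that lay near the 0.02 of all genes. Among 16 Rag GTPase and Ragulator genes 4 passed as lower and 3 as higher, so RRAGC and RRAGD did not stand for the whole complex, and of 10 inhibitors of mTORC1 3 passed as lower and 2 as higher.

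Promoters of 5 genes are printed because they carry the family's binding letters and differ in how the gene moved. Each runs 250 bases up to the RefSeq start site (GRCh38.p14), 5′ to 3′ on the gene's strand, with the motif named in capitals. RRAGC, lower in DKO Torin cells, lies at chr1:38859773-38860022 on the minus strand and holds CACGTG at 112 bases before the start. CTSA, a lysosomal carboxypeptidase that was modestly lower (151, 162 and 174 against 196, 211 and 229.9; log2 fold change -0.39), lies at chr20:45891085-45891334 on the plus strand and holds TCACGTGA at 26 bases before the start. MCOLN1, the lysosomal calcium channel, lies at chr19:7522374-7522623 on the plus strand and holds 2 copies, but its values were low and it did not pass (1.08, 3.03 and 3.15 against 5, 3.77 and 3.46; log2 fold change -0.63, adjusted p = 0.0678). INSIG1 of the sterol pathway lies at chr7:155297628-155297877 on the plus strand with TCACGTGA at 56 bases before the start. RRAGB, another Rag GTPase, lies at chrX:55717499-55717748 on the plus strand with TCACGTGA at 26 bases before the start, and it was higher in DKO Torin cells (5.54, 5.69 and 5.51 against 2.07, 3.93 and 3.87; log2 fold change 0.65, adjusted p = 0.0381).
RRAGC promoter: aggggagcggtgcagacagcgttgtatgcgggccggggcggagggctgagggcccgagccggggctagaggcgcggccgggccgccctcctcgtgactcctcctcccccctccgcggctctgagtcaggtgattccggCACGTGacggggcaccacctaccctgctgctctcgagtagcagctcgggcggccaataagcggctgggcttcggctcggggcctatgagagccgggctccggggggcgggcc
CTSA promoter: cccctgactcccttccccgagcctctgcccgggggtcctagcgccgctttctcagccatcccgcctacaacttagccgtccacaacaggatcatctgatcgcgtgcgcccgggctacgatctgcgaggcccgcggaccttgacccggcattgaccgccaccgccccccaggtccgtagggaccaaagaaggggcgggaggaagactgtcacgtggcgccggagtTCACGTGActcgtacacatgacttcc
MCOLN1 promoter: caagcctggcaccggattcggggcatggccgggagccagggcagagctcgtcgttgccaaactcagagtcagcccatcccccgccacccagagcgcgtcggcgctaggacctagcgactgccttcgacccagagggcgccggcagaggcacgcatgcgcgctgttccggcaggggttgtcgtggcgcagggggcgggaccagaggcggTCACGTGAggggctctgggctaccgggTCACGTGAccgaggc
INSIG1 promoter: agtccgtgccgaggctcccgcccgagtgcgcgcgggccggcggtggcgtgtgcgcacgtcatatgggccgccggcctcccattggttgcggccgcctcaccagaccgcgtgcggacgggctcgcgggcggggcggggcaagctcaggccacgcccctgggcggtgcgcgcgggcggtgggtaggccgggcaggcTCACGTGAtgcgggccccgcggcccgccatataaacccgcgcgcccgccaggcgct
RRAGB promoter: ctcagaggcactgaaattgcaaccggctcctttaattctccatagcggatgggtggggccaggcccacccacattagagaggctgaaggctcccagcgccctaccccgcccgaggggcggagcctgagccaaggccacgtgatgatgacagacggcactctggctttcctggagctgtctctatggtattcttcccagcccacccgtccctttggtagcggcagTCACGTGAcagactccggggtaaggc

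Over all genes with a promoter in the RefSeq table (10228 of 13040), CACGTG was found in 10.4% of windows running from 250 bases before to 50 after the start, and TCACGTGA, which contains it, in 1.98%. Both motifs read the same on either strand. CACGTG was in 9.22% of the 282 called-lower genes with a promoter and in 7.04% of the 71 called-higher ones, shares near or under that of all genes. TCACGTGA was in 5 of the 282 (1.77%), namely INSIG1, FRMD4A (-1.51), MAFF (-1.22), DUSP1 (-1.31) and BEX1 (-2.05), and in 0 of the 71. CACGTG was in 47.4% of 19 established targets, 30.3% of 33 lysosomal genes and 42.9% of 14 Rag and Ragulator genes. For TCACGTGA these shares were 21.1%, 18.2% and 7.14%. These lists were drawn up from known family targets and lysosomal genes, so their motif shares are no finding of these data. Sterol genes had CACGTG in 15.8% of 19 promoters and E2F genes in 9.62% of 52. These are matches of letters in a window and not measured binding.

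Cytosolic ribosomal protein genes were higher in the DKO Torin cells by small steps, all in the same direction. Of 78 genes, 69 passed as higher and none as lower, all 78 log2 fold changes were above 0, from 0.05 to 0.60, and the median was 0.31. RPL3 measured 1122, 1146 and 1175 in DKO Torin libraries and 891, 861 and 1037 in TFEB KO Torin libraries (log2 fold change 0.31 ± 0.06, adjusted p = 1.45e-04). The lowest DKO value of RPL3 lay above the highest TFEB KO value. In the controls 54 of 78 passed as higher and none as lower (median 0.25), and 0 of 78 passed in the interaction. Of 51 respiratory chain genes 24 passed as higher and 1 as lower with a median of 0.24, and of 47 ribosome biogenesis genes 17 passed as higher and 5 as lower with a median of 0.18. Rescaling the libraries by median-of-ratios factors left 68 ribosomal protein genes past the test, all higher.

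**Figure D3:**
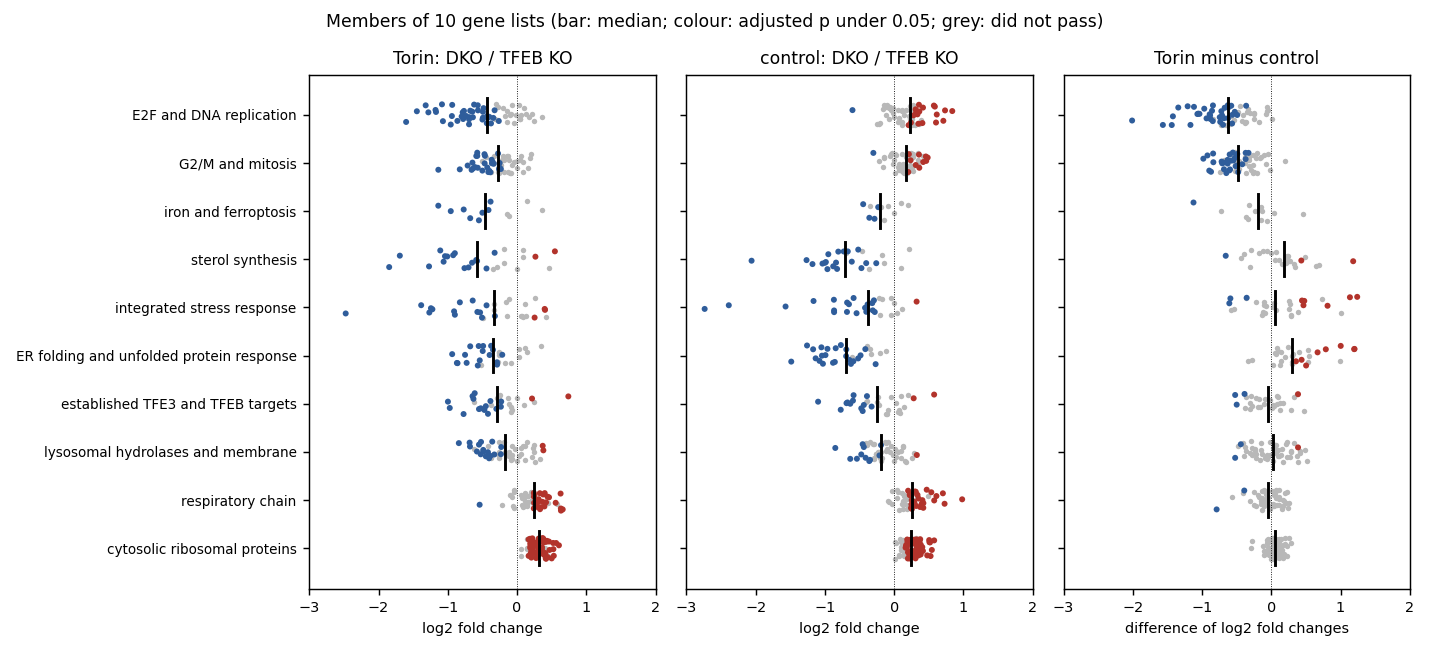
Median log2 fold change of 10 gene lists in DKO against TFEB KO cells with Torin, in the controls, and in the interaction. A positive interaction is a more positive log2 change with Torin in DKO cells. Points are genes, colored where the adjusted p was under 0.05, and bars are medians; E2F and G2/M genes lie below 0 with Torin and above 0 in the controls, sterol genes lie below 0 in both, and ribosomal protein genes lie above 0 in both.

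Among genes of pigment cell identity none of the 15 melanocyte lineage factors was called, and 8 passed as higher and 3 as lower. Of 35 pigment and melanosome genes 7 passed in each direction, near the 14.8% and 16.4% of all genes. PAX3, a transcription factor of the lineage, measured 75.1, 70.4 and 69.9 in DKO Torin libraries and 34.7, 47.6 and 51.1 in TFEB KO Torin libraries (log2 fold change 0.70 ± 0.11, adjusted p = 2.43e-06). KIT, the receptor for stem cell factor, measured 285, 299 and 285 against 233, 206 and 187 (log2 fold change 0.48 ± 0.09), and its interaction was 0.76 ± 0.12 (adjusted p = 4.03e-05); in the controls it passed as lower (-0.29 ± 0.09). DCT, an enzyme of melanin synthesis, measured 378, 422 and 395 against 699, 626 and 640.0 and was lower (log2 fold change -0.72 ± 0.07, adjusted p = 8.07e-11). These genes did not overlap between the groups. TYRP1, another melanin enzyme, measured 1675, 1656 and 1716 against 1571, 1645 and 1750.5, with overlap (log2 fold change 0.02 ± 0.06).

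Of 31 matrix and adhesion genes 13 passed as lower and 6 as higher, with a median of -0.27, where 16.4% and 14.8% of all genes did. Of 14 cytokines and chemokines 5 passed as lower and 1 as higher, of 24 genes of WNT, NOTCH and TGF-beta outputs 4 as lower and 1 as higher, and of 21 genes of PI3K and FOXO feedback 4 in each direction. FN1, fibronectin, measured 130.4, 137 and 133 in DKO Torin libraries and 288, 289 and 251 in TFEB KO Torin libraries (log2 fold change -1.04 ± 0.19, adjusted p = 3.58e-04). SPP1, osteopontin, measured 22.6, 15.7 and 24.0 against 57.8, 49.9 and 58.6 (log2 fold change -1.39 ± 0.16), and IL24, a cytokine of the IL-10 family, 7.38, 7.59 and 6.69 against 23.6, 28.3 and 23.8 (log2 fold change -1.67 ± 0.25). The groups did not overlap for these 3 secreted products. JAG1, a NOTCH ligand, measured 14.2, 19 and 24.2 against 56.6, 44.1 and 53.8 (log2 fold change -1.41 ± 0.16), in the opposite direction to the receptor NOTCH3, and SFRP1, a secreted WNT antagonist, 13.2, 9.48 and 9.64 against 65.5, 79.0 and 63.5 (log2 fold change -2.59). Further genes called lower were the integrin ITGA3 (-1.25), the collagen COL4A2 (-1.14), KITLG, the ligand of KIT (-1.26), EGR1, an immediate early factor (-1.39), and BCL2A1, an antiapoptotic BCL2 relative (-2.40). Cancer-testis antigens were mixed, with 8 of 17 passing as higher and 3 as lower; SSX1 measured 7.08, 9.86 and 7.08 against 42.2, 57.6 and 43.4 (log2 fold change -2.44 ± 0.21, adjusted p = 9.42e-13), with MAGEC1 higher as given above. Of 37 interferon genes 3 passed in each direction, and of 17 genes of the MYC network 4 passed as higher and 2 as lower.

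A small number of named calls lay near the limits and were lost without 1 library or another. CDKN2B, a kinase inhibitor (-1.03 with all libraries), was -0.995 without TFEB KO Torin library 2, -0.992 without library 3 and -0.86 without DKO Torin library 2. PMAIP1, the BH3-only protein NOXA (-1.14), was -0.94 without DKO Torin library 3, and MT2A, a metallothionein (-1.03), was -0.98 without TFEB KO Torin library 2 and -0.997 without DKO Torin library 3. GBP2, a guanylate-binding protein whose groups overlapped (-1.01), was -0.72, -0.77 and -0.91 without TFEB KO Torin library 1, DKO Torin library 1 and DKO Torin library 3. THY1 (1.14, values of 3.69, 3.03 and 4.33 against 0.172, 2.04 and 1.63) was 0.72 without TFEB KO Torin library 1, E2F8 (-1.17) was -0.88 without TFEB KO Torin library 3, and KIAA0226L (1.01) was 0.75 and 0.76 without TFEB KO Torin library 2 and DKO Torin library 3. MAGEA1 (1.01) lay between 0.89 and 0.99 without any 1 of 4 libraries, TFEB KO Torin 1 and 2 and DKO Torin 1 and 3. THY1 and KRT18 (1.26; 9.54, 6.26 and 11.6 against 3.10, 2.83 and 3.46) are markers of fibroblasts and of simple epithelia, and the summed levels of those marker lists overlapped between the groups.

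The control libraries of the same clones gave a comparison without Torin. Here 53 genes (0.406%) were called higher and 341 (2.62%) lower in DKO than in TFEB KO cells. The higher count was 89 without TFEB KO control library 3. Of the 103 genes called higher with Torin, 22 were also called higher without it (21.4% of 103 and 41.5% of 53), and of the 383 called lower, 170 were (44.4% of 383 and 49.9% of 341). No gene was called in opposite directions. The median log2 fold change of the 383 genes was -1.26 with Torin and -0.91 without, with 369 of the same sign, and that of the 103 was 1.14 and 0.52, with 91 of the same sign. RNY1 (-4.86), KRT81 (-4.50) and CRYAB (-4.45) were the lowest genes of the control comparison, and BASP1 (2.55), KIAA0226L (1.65) and MAGEA1 (1.6) the highest. These libraries are of the same clones, so they repeat the measurement and not the knockout.

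A direct test asked whether the response to Torin, the signed log2 change from control, differed between the clones. It called 57 genes (0.437%) with a more positive response in DKO cells and 59 (0.452%) with a more negative one. Of the genes called with Torin, 5 of the 103 and 28 of the 383 were among them. CRYAB was an example, with 0.467, 2.09 and 1.72 in DKO controls against 49.9, 52.1 and 46.3 in TFEB KO controls, and an interaction of 1.29 ± 0.24 (adjusted p = 3.59e-04), or 0.97 without DKO control library 1. AHNAK, a giant scaffold protein, had the highest interaction of these. It measured 7.01, 8.02 and 5.63 in DKO controls and 24.4, 22.1 and 20.2 in TFEB KO controls, but 48.0, 66.2 and 48.4 in DKO Torin and 41.0, 44.3 and 43.6 in TFEB KO Torin libraries. The AHNAK groups were apart in the controls, lower in DKO cells, and with Torin the DKO libraries lay slightly above (log2 fold change 0.31 ± 0.17, adjusted p = 0.161; interaction 1.88 ± 0.24, adjusted p = 5.62e-07).

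TFE3 KO Torin cells, whose TFEB gene was not targeted, were compared with WT Torin cells, in other libraries and with another clone. TFEB transcripts were themselves called lower there, with 1.91, 1.34 and 2.29 in TFE3 KO Torin and 5.63 and 4.27 in WT Torin libraries (log2 fold change -1.07, adjusted p = 0.0485). The TFE3 KO values lay below TFEB KO Torin library 1 (3.45) but above libraries 2 and 3 (0.628 and 0.611, from 4 and 3 reads). In this comparison 57 genes (0.437%) were called higher and 185 (1.42%) lower, and at any fold 442 (3.39%) passed as higher and 800 (6.13%) as lower. One deposited WT Torin column was identical in every gene to a WT column of another treatment and was left out, so the WT Torin group had 2 libraries. Of the 383 genes called lower in DKO Torin cells, 83 were also called lower here (21.7% of 383 and 44.9% of 185) and none higher, 339 had the same sign and the median was -0.49. Of the 103 called higher, 7 were called higher (6.8% of 103 and 12.3% of 57) and 1 lower, and the median was 0.37. Across both comparisons of DKO cells and this one, 64 genes were called lower in all, among them RNY1, ANKRD1, KRT81 and PALMD, and 2 were called higher in all, LGI4 and FAM19A5; the LGI4 call was lost without WT Torin library 2 (1.03, adjusted p = 0.0948). HMGCS1 measured 55.8, 56.8 and 53.9 in TFE3 KO Torin libraries and 187 and 171 in WT Torin libraries (log2 fold change -1.67), and 13 of the 26 sterol genes passed as lower there and none as higher. Of the E2F genes 20 of 61 and of the established targets 8 of 30 passed as lower there, none higher in either. TFRC measured 94.1, 86.4 and 83.2 against 182 and 162 (log2 fold change -0.96, adjusted p = 4.23e-11).

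An interaction between these comparisons tested whether the difference that went with the TFE3 knockout had another size in TFEB KO and in TFEB-intact cells. TFEB transcripts were lower in TFE3 KO Torin than in WT Torin cells, as given above, which limits this interaction. It called 107 genes (0.821%) higher, or 66 without WT Torin library 3, and 177 (1.36%) lower. They included 26 of the 103 genes called higher with Torin and 95 of the 383 called lower. KRT81 was one: in the TFEB-intact lines it measured 0, 0.445 and 0 in TFE3 KO Torin and 2.58 and 0.474 in WT Torin libraries, all near the value of a few reads, and the interaction was -3.03 (adjusted p = 2.28e-06). That call was lost with a pseudocount of 0.1 (-2.08, adjusted p = 0.0771), with edgeR (-1.66, adjusted p = 0.631) and with DESeq2 (-1.49, adjusted p = 0.484). Its WT Torin mean, 1.53, lay near the DKO Torin values and far below the TFEB KO Torin ones. MAP2 was another, with 27.6, 37.6 and 33.3 against 32.1 and 37.4, groups that overlapped, and an interaction of 1.84 (adjusted p = 5.41e-07); adding the identical column to the WT Torin group gave 1.32 (adjusted p = 0.0578). By group means on the log2 scale, the WT Torin libraries were nearer to DKO Torin for 215 of the 383 called-lower genes and nearer to TFEB KO Torin for 168, while TFE3 KO Torin was nearer to DKO Torin for 356 and nearer to TFEB KO Torin for 27. For the 103 called-higher genes these numbers were 41 and 62, and 62 and 41. The TFE3 KO, TFEB KO, DKO and WT lines are 1 clone or population each, so a difference particular to the TFEB KO clone and an effect of TFE3 cannot be told apart for such genes.

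**Figure D4:**
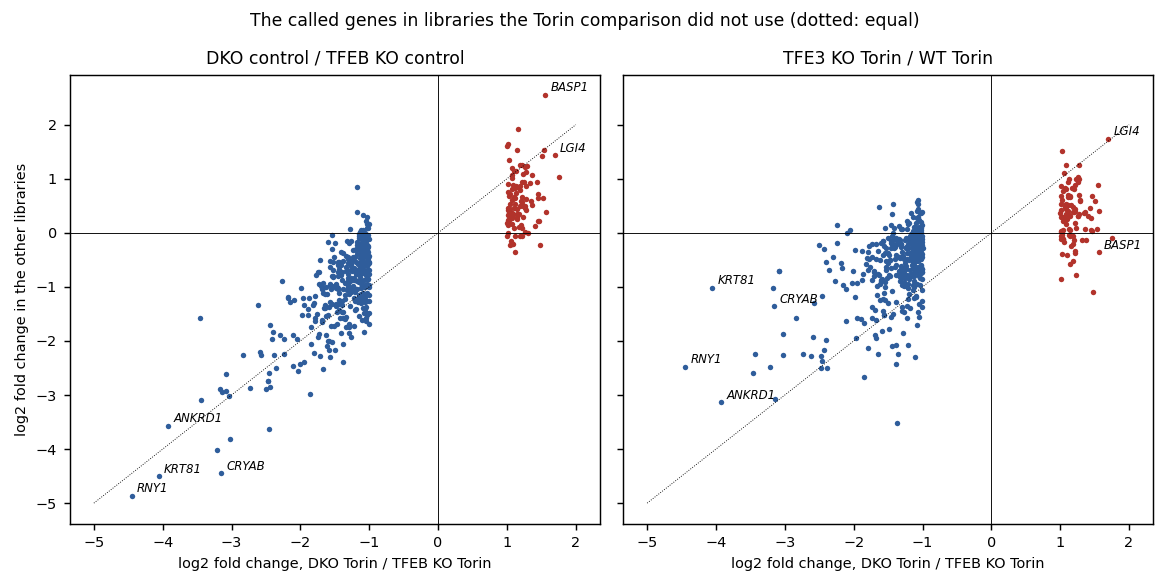
Log2 fold change of the 486 genes called in DKO Torin against TFEB KO Torin cells (x axis) and of the same genes in the control libraries of the same clones and in TFE3 KO Torin against WT Torin (y axes); the dotted line marks equal values. Most called-lower genes lie below 0 in both, with medians of -0.91 and -0.49, and the called-higher genes have medians of 0.52 and 0.37.

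The called genes were spread over the chromosomes, with shares called between 1.90% (chromosome 22) and 6.35% (chromosome 4) of the genes tested. The distal long arm of chromosome 6, chosen after its values were seen, stood lower as a block. Beyond 90 Mb it held 225 tested genes, of which 181 had a log2 fold change below 0, 74 passed as lower and 7 as higher, and 15 were called lower and none higher. Its median was -0.29 with Torin and -0.24 in the controls, against -0.06 for the interaction and 0.03 in TFE3 KO Torin against WT Torin. Among 10-Mb windows with at least 15 tested genes the lowest, at 150 to 160 Mb of chromosome 6, held 35 tested genes with a median of -0.45 with Torin and -0.36 in the controls, and the highest window median in the genome was 0.42. Genes called in that block included MOXD1, a monooxygenase-like protein (2.46, 3.98 and 2.95 against 22.1, 17.9 and 22.4; log2 fold change -2.41 ± 0.16), and EPHA7, an ephrin receptor (0.923, 2.28 and 1.77 against 8.45, 8.17 and 6.52; log2 fold change -1.74 ± 0.27). Both were lower in every DKO Torin library.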

How the data were processed

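RNA from 501mel cells was measured by 3′ end RNA-seq (QuantSeq Forward). Per the labels and methods, the authors checked and trimmed reads (FastQC 0.11.9, cutadapt 2.10), aligned them to hg38 with STAR 2.7.8a and named edgeR; the counting tool, annotation, scaling and filter are not given in the sources used here. The deposited values are a signal, read here as CPM after a scaling between libraries. They came out as whole reads (within 0.01) for 100% of values.

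Of 13523 genes, 13 of chromosome Y were set aside. The column of WT HBSS replicate 3 equals WT Torin replicate 1 in 13523 genes and was left out of both, which left 25 of 27 columns. The 13040 genes that reached a value of 1 in 3 libraries (470 did not) were fitted with limma 3.58.1 (R 4.3.3, trend and robust) on log2(value + 1), with 1 mean per group over all 25 libraries and no block, and tests were two-sided. Fold changes on this scale understate those of low genes. Called genes had an adjusted p under 0.05 and a log2 fold change of at least 1. Other settings tried were a pseudocount of 0.1, the fit without a filter or with a minimum of 5, median-of-ratios scaling, edgeR 4.0.16 and DESeq2 1.42.0 on the recovered reads, the compared libraries alone, a replicate block and leaving out each library; the fit was tested on simulated data.

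Named genes were TFE3, TFEB and MITF, the 15 highest and 15 lowest called genes with a mean of at least 5 in the higher group and no overlap, up to 4 called members of each of 44 lists, and 3 at either end of each other comparison. Other genes in the text are list members, or were chosen after their values were seen. The members and lists were chosen with earlier results of these data known. Gene positions are from GENCODE v44 or RefSeq (303 symbols were not placed). Intervals on read ratios are exact, at 95%. Some genes that the rule picked are not reported here.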

Additional observations from a re-analysis of the deposited data

Results flagged for a closer look

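For 15 named genes the difference between DKO and TFEB KO cells changed with Torin, by a test of the interaction itself (limma, adjusted p under 0.05, log2 difference of at least 1). The interaction was positive, a more positive log2 change with Torin in DKO cells, for AHNAK (1.88), SAMD5 (1.74), FBXO2 (1.66), CRYAB (1.29) and SLITRK2 (1.28). It was negative for E2F8 (-2.01), PALMD (-1.88), FAM111B (-1.57), E2F2 (-1.44), CCNE2 (-1.34), GINS1 (-1.17), TFRC (-1.13), PMAIP1 (-1.06), JAG1 (-1.04) and EGR1 (-1.01). The calls for PMAIP1, EGR1, JAG1 and SLITRK2 ended without 1 library or another (-0.87, -0.82, -0.86 and 1.14 without DKO Torin library 3 or, for JAG1, library 1). PALMD had no read in any DKO control library and 2 in the DKO Torin libraries, so its response in DKO cells was not measurable and its value is set by the pseudocount (adjusted p = 0.327 with a pseudocount of 0.1). Of these, E2F8, FAM111B, E2F2, CCNE2 and GINS1 are genes of the E2F and DNA replication list.

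By the same kind of test, the difference that went with the TFE3 knockout under Torin varied with TFEB genotype for 24 named genes. It was higher in the TFEB KO background for SEPT11 (2.14), EFNA3 (2.01), BASP1 (1.92), MAP2 (1.84), COL27A1 (1.5), RAB3C (1.46), CADM4 (1.40), EFNB3 (1.17) and SLITRK2 (1.1). It was lower for KRT81 (-3.03), FAM133A (-2.95), LOC101928304 (-2.40), HTN3 (-2.38), OVAAL (-2.37), LINC00504 (-2.15), SSX1 (-2.14), RNY1 (-1.97), CRYAB (-1.79), E2F8 (-1.53), COL4A2 (-1.42), KLHL6 (-1.27), OSBPL10 (-1.20), WFDC1 (-1.16) and JAG1 (-1.14). SEPT11 had no read in any TFE3 KO Torin library and 1 read in the DKO Torin libraries, so both folds were limited by the floor and its value is no measured difference in effect (adjusted p = 0.364 with edgeR). HTN3 measured at most 1.42 in the TFE3 KO and WT Torin libraries, and its call ended with edgeR (adjusted p = 0.462). Some of these calls ended in many of the settings tried: SLITRK2 in 12 of 19 (0.36, adjusted p = 0.785 with the identical column), COL4A2 in 9 of 18, OSBPL10 in 8 of 20, CADM4 in 7 of 20, E2F8 in 7 of 18 and EFNB3 in 3 of 20. Groups of 3 libraries were too small for a test of outlying libraries.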

How the results depend on the processing

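In total the 486 calls in DKO Torin against TFEB KO Torin cells stayed within 1.5 times under every alternative run: 626 with a pseudocount of 0.1, 489 without the filter, 353 at a value of at least 5, 495 after rescaling, 692 with edgeR, 650 with DESeq2, 486 from the compared libraries alone and 493 to 529 without 1 library. The 103 called higher became 170 with edgeR, 157 with DESeq2 and 67 at a value of at least 5; the 53 of the controls became 117 with a pseudocount of 0.1, 106 with edgeR and 104 with DESeq2. Same-numbered DKO and TFEB KO Torin libraries did not deviate together (correlations of -0.045, 0.0085 and 0.018), so the numbers did not pair the libraries of that comparison. In the controls these correlations were 0.034, -0.0030 and 0.0999. Torin and control libraries of the same clone and number had 0.039, 0.066 and 0.143 in DKO cells. In TFEB KO cells they had 0.034, 0.026 and 0.129. With a replicate block the counts were 486 in the Torin comparison, 392 in the controls, 122 for the response to Torin, 238 for TFE3 KO against WT and 275 for the last interaction. Without 1 library these others ranged over 400 to 449, 91 to 140, 209 to 252 and 217 to 289. Counts that moved by over 1.5 times were 597 in the controls with edgeR; 153 for TFE3 KO against WT at a value of at least 5 and 399 (147 higher, 252 lower) with the identical column counted as WT Torin; and, for the last interaction, 179 with DESeq2 and 94 with the identical column. With edgeR the PALMD interaction turned from negative to positive (0.34, adjusted p = 0.734). The DKO control libraries had no PALMD read, and the cause was not tested. Of 84 named genes 75 kept their side of the threshold in the Torin comparison under all alternatives, as did 6 of 6 in the controls, 8 of 15 in the response to Torin, 5 of 6 in TFE3 KO against WT and 8 of 24 in the last interaction. Most named genes were picked for large fold changes in these same libraries, so these counts do not stand for all called genes. Depth limits genes near 3 reads, for which fold changes depend on the pseudocount.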
